A study of Mus musculus with 2 samples.

Results

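Intronic RNA of RNA-processing genes is described here in mouse spleen cells from 2 libraries, 1 of arthritic mice (CIA, collagen-induced arthritis) and 1 of healthy animals. The members are assembled transcripts that lie wholly inside an intron of a reference gene (class code i of the assembly comparison) and whose host gene symbol begins with Ddx, Dhx, Srsf, Rbm, Celf, Mbnl, Eif followed by a digit, Cnot or Hnrnp. By this rule on position and name, which uses no measured level, 134 of 12603 intronic transcripts belong, in 41 of 4346 host genes. The whole table holds 16840 assembled transcripts.

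In this model, mice immunized with type II collagen develop inflamed joints; the control mice were untreated. The labels name neither strain, age nor sex, nor how many mice gave each library. Both titles give day 40, but the label of the CIA treatment puts sacrifice at day 42 after the first immunization. Total RNA was depleted of ribosomal RNA, so unspliced RNA was not removed by selection for a poly(A) tail. With 1 library per group, every difference below is between 2 libraries, has no replicate check and carries no test. Levels are written as CIA against healthy throughout.

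The genes of this group act on RNA from its synthesis to its use. DEAD-box (Ddx) and DEAH-box (Dhx) helicases remodel RNA and RNA-protein complexes. SR proteins (Srsf), hnRNPs, CELF and muscleblind (Mbnl) proteins bind pre-mRNA and set which exons are kept, and lymphocytes use such switches when they are activated. Eif genes encode translation initiation factors and the kinases and inhibitors that restrain them, and Cnot genes encode parts of the CCR4-NOT complex, which shortens poly(A) tails. Symbol and function do not always match. Ddx11 encodes a DNA helicase of chromosome cohesion, Ddx4 is the germ cell helicase Vasa, and Eif2ak2, Eif2ak3 and Eif2ak4 encode stress kinases. RNA inside an intron can come from unspliced pre-mRNA, a retained or slowly removed intron or a separate transcript, and these tables do not distinguish them.

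The sequence of the introns was not used here, so promoters of the host genes are shown, for the 2 hosts of highest ratio (Ddx27 and Rbms3), the 2 of lowest (Rbm41 and Ddx4) and the most abundant (Mbnl1). Each is the RefSeq promoter of GRCm38.p6 nearest upstream of an assembled intronic transcript of the host, 300 bases long, 5′ to 3′ on the strand of the gene. The Rbms3 sequence is an internal promoter, 377.4 kb from the 5′ end of the gene. Capitals mark 3 motifs searched on both strands, with overlaps allowed. The GC box was searched as GGGCGG. The core of ETS factor sites was searched as CCGGAA. The TATA element was searched as TATAAA.
Ddx27, chr2:167015063-167015362, plus strand: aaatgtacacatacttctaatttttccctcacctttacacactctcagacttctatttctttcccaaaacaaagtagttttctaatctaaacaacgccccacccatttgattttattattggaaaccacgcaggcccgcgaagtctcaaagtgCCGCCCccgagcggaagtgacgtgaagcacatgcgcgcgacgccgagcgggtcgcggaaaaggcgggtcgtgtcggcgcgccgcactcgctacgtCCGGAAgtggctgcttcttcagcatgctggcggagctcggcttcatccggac
Rbms3, chr9:117252434-117252733, minus strand: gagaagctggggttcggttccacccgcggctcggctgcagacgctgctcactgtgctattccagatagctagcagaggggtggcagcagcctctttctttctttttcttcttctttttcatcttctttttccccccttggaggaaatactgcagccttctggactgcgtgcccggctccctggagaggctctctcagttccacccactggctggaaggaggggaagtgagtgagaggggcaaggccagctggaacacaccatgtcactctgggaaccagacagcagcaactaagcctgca
Rbm41, chrX:139998546-139998845, minus strand: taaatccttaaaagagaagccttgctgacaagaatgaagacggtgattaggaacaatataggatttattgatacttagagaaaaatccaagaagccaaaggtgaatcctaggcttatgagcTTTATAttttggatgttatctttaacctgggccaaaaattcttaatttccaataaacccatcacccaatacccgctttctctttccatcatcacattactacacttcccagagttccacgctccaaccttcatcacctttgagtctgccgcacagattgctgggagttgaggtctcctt
Ddx4, chr13:112652261-112652560, minus strand: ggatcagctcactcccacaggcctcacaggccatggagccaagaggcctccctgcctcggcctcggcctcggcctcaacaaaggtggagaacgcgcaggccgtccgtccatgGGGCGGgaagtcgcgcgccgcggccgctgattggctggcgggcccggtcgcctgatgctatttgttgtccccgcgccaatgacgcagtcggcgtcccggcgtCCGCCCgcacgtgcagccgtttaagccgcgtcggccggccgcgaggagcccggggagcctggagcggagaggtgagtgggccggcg
Mbnl1, chr3:60472580-60472879, plus strand: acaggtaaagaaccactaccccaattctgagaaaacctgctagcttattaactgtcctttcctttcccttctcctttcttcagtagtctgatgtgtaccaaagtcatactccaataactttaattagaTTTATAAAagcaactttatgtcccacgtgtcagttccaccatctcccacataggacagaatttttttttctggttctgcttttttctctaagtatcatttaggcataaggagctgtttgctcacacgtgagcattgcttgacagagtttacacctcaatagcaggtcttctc

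The 5 promoters differ in base composition. The Ddx4 sequence is 72.0% G or C with 38 CG dinucleotides and holds 2 GC boxes. The Ddx27 sequence has 28 CG dinucleotides, 1 GC box and 1 ETS core. The Rbms3 sequence has 7 CG dinucleotides and none of the 3 motifs, and the Rbm41 and Mbnl1 sequences, with 4 and 2 CG dinucleotides, hold TATAAA only. RefSeq promoters were matched by symbol for 35 of the 41 hosts (55 promoters). GGGCGG was found in 49.1% of these, against 58.5% of 4407 promoters of the other intronic host genes and 35.6% of all 32817 promoters. CCGGAA was found in 34.5%, 23.0% and 14.9%, and TATAAA in 10.9%, 7.01% and 13.6%, in the same order. A match describes these letters and is no evidence of binding.

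The intronic RNA of RNA-processing genes as a whole stood slightly higher in the CIA library, by about as much as intronic RNA in general. The value used is log2((CIA FPKM + 0.1)/(healthy FPKM + 0.1)), where FPKM is fragments per kilobase of transcript and 1000000 fragments, and a host's value is the median over its intronic transcripts. The median of the 41 hosts was 0.28, a ratio of 1.21, and that of the 4305 other hosts was 0.20, a ratio of 1.15. The quartiles of the hosts were -0.09 and 0.50, closer together than the -0.25 and 0.60 of the other hosts. Of the 41 hosts, 26 (63.4%) were above 0, as were 63.0% of the others.

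Few hosts were far apart between the libraries. Past 2-fold on the higher side were 3 of 41 hosts, Ddx27, Rbms3 and Rbm19, or 7.32%, where 11.7% of all intronic hosts were called. Past 2-fold on the lower side were 3 hosts, Rbm41, Ddx4 and Eif2b3, again 7.32%, where 10.2% of all intronic hosts were called. The other 35 hosts stayed within 2-fold. Neither share is above that of intronic hosts in general. Among hosts with at least 3 transcripts, 2 of 14 were higher (14.3%, against 7.27% of the other such hosts) and 1 was lower (7.14%, against 3.48%), so there both shares were above those of the others, on few hosts.

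**Figure D1:**
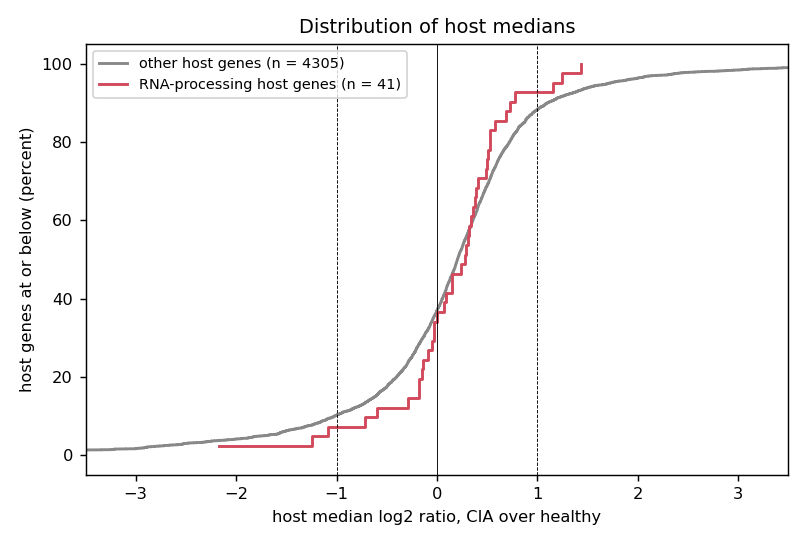
Cumulative percentage of host genes (vertical axis) at or below each host median log2 ratio (horizontal axis), for 41 RNA-processing hosts (red) and 4305 other hosts (grey); dashed lines mark 2-fold; a few hosts of the grey set lie outside the plotted range. The curves cross zero at nearly the same height, and the red curve is steeper between the dashed lines, where 35 of the 41 hosts lie.

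The direction was less even per transcript than per host. Of the 134 transcripts, 100 (74.6%) were above 0, against 63.4% of the 12469 others. Their median log2 ratio was 0.37, against 0.24 for the others. Past 2-fold on the higher side were 24 transcripts, or 17.9%, where 15.6% of all intronic transcripts were called, and past 2-fold on the lower side were 10, or 7.46%, where 10.3% were called. Transcripts of a host lie in the same gene and are not replicates, and 3 RNA-binding protein genes, Rbms3 (20), Rbms1 (19) and Rbm47 (17), hold 56 of the 134. Without these 3 genes the transcript median was 0.28 and the host median 0.20, the latter level with the other hosts at 0.20. The remaining hosts are thinly covered: 24 hosts have 1 intronic transcript, 3 have 2, and 14 have 3 or more.

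Levels ranged from 0.103 to 44.5 FPKM, and no member stood at the floor value of 0.0001 that the authors wrote for 0. Every member reached at least 1.53 FPKM in 1 of the libraries, and 99.1% of the other intronic transcripts reached at least 1.5 FPKM. A member listed well below this level in 1 library was thus above it in the other, so its direction followed from being listed. Such members were among those with the largest ratios.

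**Figure D2:**
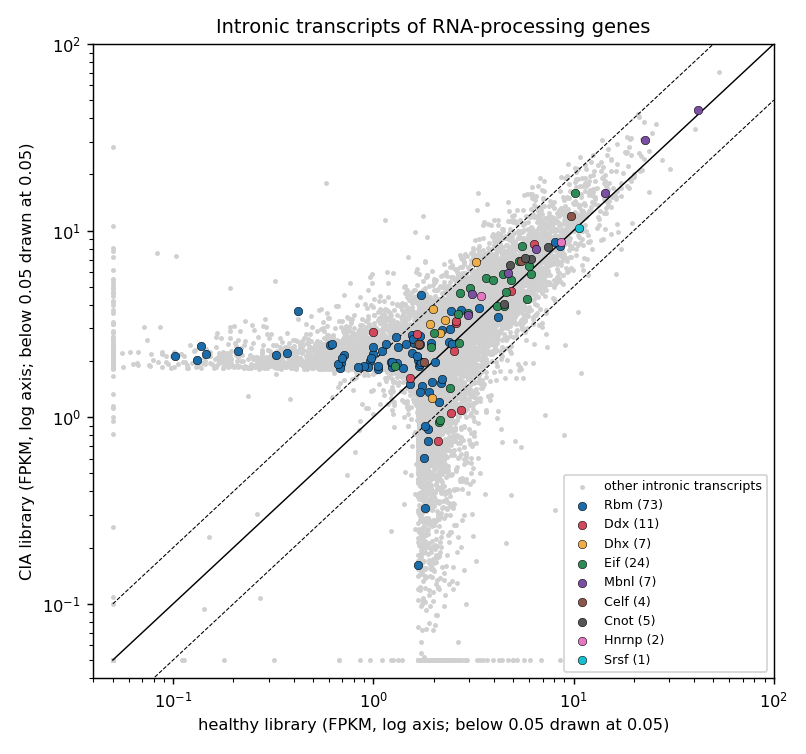
Level of each intronic transcript in the CIA library (vertical) against the healthy library (horizontal), in FPKM on log axes; coloured points are the 134 members by symbol prefix with the number in parentheses, grey points the other intronic transcripts, the solid line equal levels and the dashed lines 2-fold. The Mbnl1 transcripts sit at the top right near the line of equal levels, and the points far from it form 2 arms in which one library is at about 2 FPKM and the other lower.

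The members are mostly short single stretches of intron. Their median length was 1065 bases (207 to 23726), against 779 bases for the other intronic transcripts. The quartiles and 2-fold shares above were not adjusted for this difference in length. Of the members, 124 of 134 had 1 exon (92.5%, against 92.8% of the other intronic transcripts), and 96 had no strand assigned. Of the 38 with a strand, 22 lay on that of the host and 16 on the opposite one. The 16 include the only transcripts of Ddx23, Ddx27, Ddx39b and Hnrnpc, the longest of Celf2 and some of Eif4g3. As the strand setting of the libraries is not given, these assignments are quoted as the table has them. An intron of a GENCODE protein-coding transcript of the host held 131 of the 134. The first intron held 30 of these (22.9%), against 35.5% of the other intronic transcripts so placed. The introns had a median length of 31.7 kb, and the members lay a median of 3.67 kb from the nearest exon.

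Short transcripts spread far more than long ones. Below 500 bases, 17 of 34 members (50%) were past 2-fold in either direction, against 45.0% of the other intronic transcripts. From 500 to under 1000 bases 12 of 29 were (41.4%, against 23.9%), and from 1000 to under 2000 bases 5 of 32 (15.6%, against 14.1%). The 12 lie in Rbms3, Ddx4, Rbms1, Ddx27 and Eif2b3 alone, and transcripts of the same host are not replicates. The spread of the other intronic transcripts narrowed too. None of the 29 members from 2000 to under 5000 bases was past 2-fold, against 8.50% of the others, and none of the 10 longer ones, against 8.63%. With the transcripts of at least 1000 bases alone, 26 hosts remained with a median of 0.23, against 0.30 for the other hosts. Of these, Rbms3 was 2-fold higher (3.85%, against 6.78% of the others) and none was 2-fold lower (1.5% of the others). The other 5 hosts past 2-fold have no transcript of that length and dropped out.

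**Figure D3:**
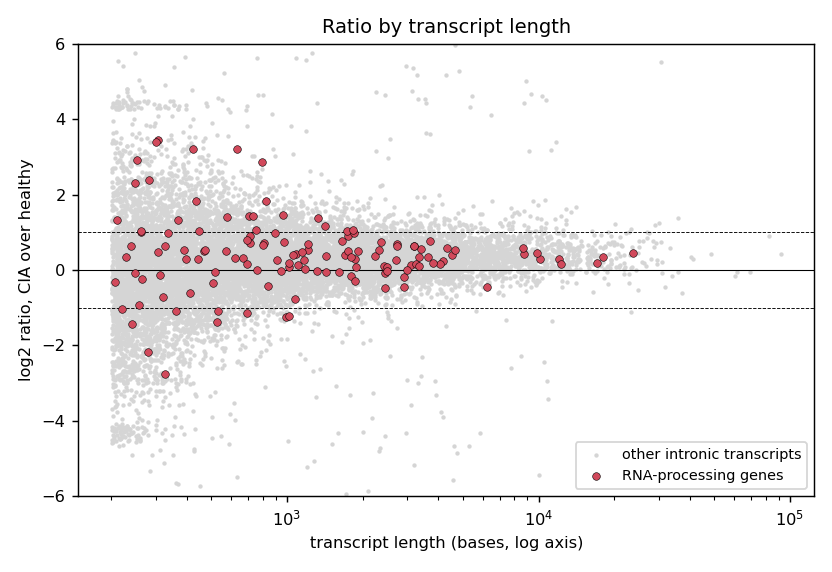
Log2 ratio of each intronic transcript, CIA over healthy (vertical), against its length in bases on a log axis (horizontal); red points are the 134 members, grey points the others, dashed lines mark 2-fold, and 8 grey points fall outside the plotted range. The red points fan out below 1000 bases and lie within 2-fold from 2000 bases upward.

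Among the helicases, 9 Ddx hosts had a median log2 ratio of 0.29 and ranged from -1.24 to 1.44, with 1 host 2-fold higher and 1 lower. Ddx27, a helicase of ribosomal RNA processing, had the highest host value of the group. Its transcript MSTRG.23067.1 (chromosome 2, 167031846 to 167032548, intron 16 of 20) stood at 2.88 against 1.0004 FPKM, or 1.44. on the log2 scale It is 703 bases long, lies 0.192 kb from an exon and carries the strand opposite to the gene. Ddx31, a nucleolar helicase, was also on the higher side at 2.80 against 1.65 FPKM, within 2-fold.

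Ddx4, the germ cell helicase, was lower in the CIA library at each of its 3 transcripts. MSTRG.11124.1 (chromosome 13, 112642472 to 112643463) stood at 1.10 against 2.74 FPKM. MSTRG.11125.1 stood at 1.05 against 2.45 FPKM and MSTRG.11126.1 at 0.747 against 2.10 FPKM. The 3 log2 ratios lay between -1.38 and -1.15, in transcripts of 1 host that are not replicates. In the CIA library all 3 stood below 1.53 FPKM, the least that any member reached in its higher library. Their shared direction thus followed from being listed. All 3 transcripts lie in introns 2 and 3, between 3.55 and 9.01 kb from the 5′ end of the gene. The CG-rich promoter printed above lies 3.34 kb upstream of the nearest one.

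The other Ddx hosts lay within 2-fold. Ddx39b, which acts in spliceosome assembly and mRNA export, stood at 8.43 against 6.33 FPKM. Ddx23, a helicase of the U5 snRNP, stood at 3.21 against 2.60 FPKM, and Ddx50, a nucleolar helicase, at 4.75 against 4.84 FPKM. Ddx11, Ddx49 and Ddx59 had log2 ratios of 0.07, 0.34 and -0.15. The 3 Dhx hosts differed among themselves. Dhx30, which in human cells serves the mitochondrial ribosome, was higher at all 5 of its transcripts, with log2 ratios from 0.38 to 1.04 and levels of 2.46 to 6.80 against 1.67 to 3.26 FPKM. The 2 ranges overlap, and the 5 ratios have an SD of 0.27. These 5 transcripts come from 1 host in the same 2 libraries and are not replicates. Dhx36, which unwinds G-quadruplexes, stood at 3.32 against 2.28 FPKM, and Dhx34, a factor of nonsense-mediated decay, at 1.26 against 1.97 FPKM.

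The splicing regulators of the Mbnl, Celf, Srsf and Hnrnp families, 6 hosts in all, were all within 2-fold. Mbnl1, a muscleblind splicing regulator, had the highest levels of the group in FPKM. MSTRG.23959.1 (chromosome 3, 60494252 to 60496743) stood at 44.5 against 41.9 FPKM. MSTRG.23958.1, upstream of it in the first intron, stood at 30.4 against 22.6 FPKM. MSTRG.23961.1, 96.1 kb from the 5′ end and on the opposite strand, stood at 16.0 against 14.4 FPKM. The host value was 0.15, below the 0.20 of the other intronic hosts. Its paralog Mbnl2 had 4 transcripts at 3.52 to 7.99 against 2.97 to 6.46 FPKM, with a host value of 0.32 and an SD of 0.13 over the transcripts.

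Celf2, a splicing regulator of T cells, had 4 transcripts with log2 ratios from 0.14 to 0.52 and a host value of 0.31. The longest, MSTRG.20178.1 of 10104 bases, stood at 11.9 against 9.75 FPKM. The other 3 lie in no intron of a GENCODE protein-coding transcript of Celf2. Srsf4, the 1 SR protein gene with intronic RNA in the table, stood at 10.4 against 10.6 FPKM in its first intron, a log2 ratio of -0.03. Hnrnpc, whose protein coats pre-mRNA, stood at 8.68 against 8.70 FPKM and Hnrnpr at 4.44 against 3.43 FPKM. Of these 3 genes, Srsf4 and Hnrnpc had almost the same level in both libraries.

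**Figure D4:**
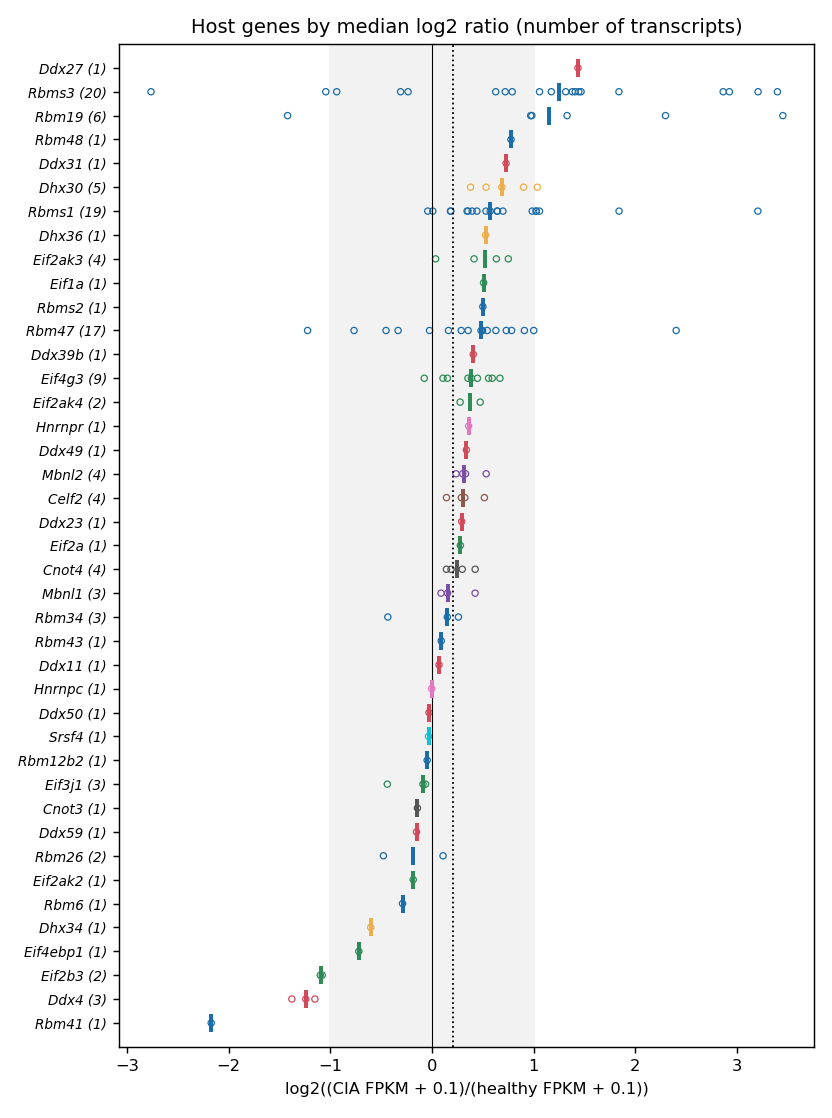
Log2 ratio of each member (open circles) and median per host (vertical bars) for the 41 host genes, ordered by the median with the number of transcripts in parentheses and coloured by symbol prefix; the shaded band is within 2-fold and the dotted line is the median of the 4305 other hosts, 0.20. Ddx27, Rbms3 and Rbm19 lie right of the band, Rbm41, Ddx4 and Eif2b3 left of it, and the Mbnl, Celf, Cnot, Hnrnp and Srsf hosts inside it.

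The Rbm prefix is the broadest, with 12 hosts and 73 transcripts, a median host value of 0.32 and the widest range, from -2.17 to 1.25. Rbms3, of a family of proteins binding single-stranded nucleic acids, had 20 transcripts with a host value of 1.25. They ranged from 0.161 to 3.70 FPKM with a median of 2.03 in the CIA library, and from 0.137 to 1.88 FPKM with a median of 0.778 in the healthy library. Of the 20, 12 were 2-fold or more up and 2 as far down, and the SD of the log2 ratios was 1.54. The 2 ranges overlap, and 3 of the 12 have 1000 bases or more. The 4 transcripts of at least 1000 bases were all higher, with log2 ratios from 0.63 to 1.38. In the healthy library all 4 stood below 1.53 FPKM, the least that any member reached in its higher library. Their shared direction thus followed from being listed. The longest of them, MSTRG.39722.1, stood at 1.97 against 1.24 FPKM. MSTRG.39730.1 (chromosome 9, 117248452 to 117249869), 2.57 kb downstream of the promoter shown, stood at 2.37 against 0.993 FPKM. The transcript of lowest ratio in the whole group, MSTRG.39709.1 of 328 bases, also lies in Rbms3, at 0.161 against 1.67 FPKM.

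Rbms1, its paralog, was higher in the CIA library at 18 of 19 transcripts, with a host value of 0.57 and 5 transcripts past 2-fold. They ranged from 1.94 to 3.85 FPKM under CIA and from 0.131 to 3.37 FPKM in the healthy mice. Over the 14 transcripts of at least 1000 bases the median log2 ratio was 0.49, and 1 of these was 2-fold higher. The longest intronic transcript of the group, MSTRG.21286.1 of 23726 bases, lies in Rbms1 and stood at 3.75 against 2.74 FPKM. Rbms2, with 1 transcript of 570 bases, stood at 2.47 against 1.72 FPKM. All 3 Rbms hosts were thus on the higher side, with Rbms3 alone past 2-fold. Of the 4305 other hosts, 63.0% were above 0 too.

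Rbm47, a cofactor of C-to-U RNA editing, was mixed along its 17 transcripts. They ranged from 0.743 to 2.98 FPKM under CIA and from 0.327 to 2.42 FPKM in the healthy mice. Of the 17, 12 were above 0, 2 were past 2-fold on the higher and 1 on the lower side, with a host value of 0.48. Over the 9 transcripts of at least 1000 bases the log2 ratios ran from -1.22 to 0.91. Even its long transcripts thus lie on both sides of 0.

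**Figure D5:**
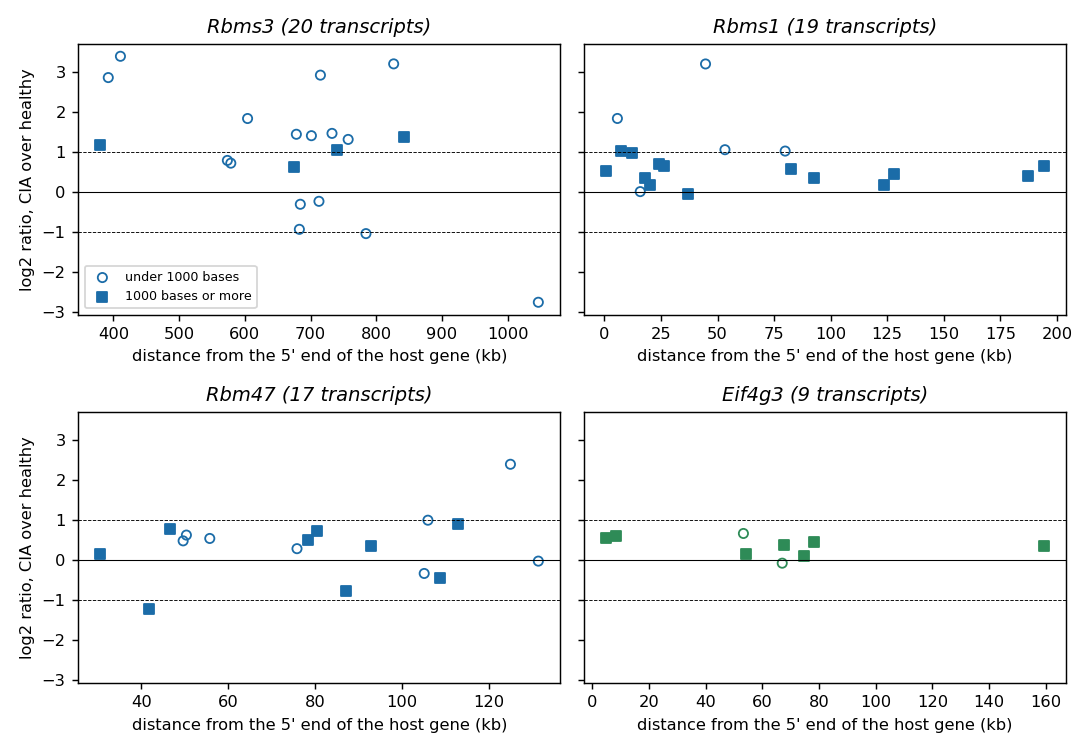
Log2 ratio, CIA over healthy (vertical), of each intronic transcript against its distance from the 5′ end of the host gene in kb (horizontal) for the 4 hosts with most transcripts; open circles are transcripts under 1000 bases, filled squares those of 1000 bases or more, and dashed lines mark 2-fold. The Rbms3 points lie mostly above 1, the Rbms1 points mostly between 0 and 1, the Rbm47 points on both sides of 0, and the Eif4g3 points closest together.

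Rbm19, a nucleolar protein of ribosome production, had a host value of 1.16 over 6 transcripts, none of 1000 bases or more. MSTRG.29692.1, of 307 bases, had the highest ratio of the whole group, at 2.12 against 0.103 FPKM. Of the other 5, 4 were higher and MSTRG.29690.1, which overlaps the span of the antisense gene Gm10390, was lower, at 0.604 against 1.78 FPKM. Rbm41, known in human cells from the minor spliceosome, had the lowest host value of the group. Its 1 transcript, MSTRG.40843.1 of 281 bases (chromosome X, 139938184 to 139938464), stood at 0.324 against 1.81 FPKM, or -2.17. on the log2 scale The highest transcript ratio and the lowest host value thus rest on transcripts of 307 and 281 bases.

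The other Rbm hosts stayed within 2-fold. Rbm48 stood at 2.76 against 1.57 FPKM and Rbm6 at 3.43 against 4.21 FPKM. The 2 transcripts of Rbm26 went different ways, at 8.69 against 8.05 FPKM and at 1.53 against 2.17 FPKM. Rbm34, Rbm43 and Rbm12b2 had host values of 0.15, 0.09 and -0.05.

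Among the translation genes, 9 Eif hosts had a median of 0.28, with 1 host 2-fold lower and none 2-fold higher. Eif4g3, a scaffold of the cap-binding complex, had 9 intronic transcripts along its length, assigned to its own strand, the opposite strand or none. The 9 transcripts ranged from 4.92 to 8.23 FPKM under CIA and from 3.05 to 6.15 FPKM in the healthy mice. Of the 9, 8 were higher in the CIA library, none was past 2-fold, and the log2 ratios had a median of 0.39 and an SD of 0.25. Eif2b3, a subunit of the exchange factor that recharges eIF2, was lower at both transcripts. MSTRG.26732.1 (chromosome 4, 117042412 to 117042940) stood at 0.944 against 2.14 FPKM. MSTRG.26733.1, 3 introns further on, stood at 0.965 against 2.15 FPKM. Their log2 ratios were -1.10 and -1.08, and 2 transcripts of 1 host are not replicates. In the CIA library both stood below 1.53 FPKM, the least that any member reached in its higher library. Their shared direction thus followed from being listed.

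The 3 eIF2 kinase hosts lay on both sides of 0. Eif2ak3 (PERK, the kinase of endoplasmic reticulum stress) had a host value of 0.52 over 4 transcripts at 3.56 to 15.9 against 2.64 to 10.2 FPKM. Eif2ak4 (GCN2, the kinase of amino acid shortage) had a host value of 0.38 over 2 transcripts. Eif2ak2 (PKR, the kinase activated by double-stranded RNA) stood at 3.95 against 4.50 FPKM, or -0.18. on the log2 scale All 3 are within 2-fold. Eif4ebp1, the inhibitor of cap-dependent initiation, stood at 1.43 against 2.42 FPKM. Eif1a stood at 1.88 against 1.29 FPKM and Eif2a at 2.37 against 1.93 FPKM, while Eif3j1 had a host value of -0.09 over 3 transcripts.

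Of the deadenylase complex, Cnot4, its ubiquitin ligase, had 4 transcripts on the strand of the gene at 6.53 to 8.21 against 4.84 to 7.43 FPKM. All 4 log2 ratios were between 0.14 and 0.43, with a host value of 0.24. Cnot3, a core subunit, stood at 4.07 against 4.50 FPKM. Neither was past 2-fold.

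Of the 41 hosts, 6 also have assembled transcripts of other classes, which share splice sites or overlap exons and are not members. In Cnot4 the 2 spliced transcripts summed to 13.0 against 9.75 FPKM, a log2 ratio of 0.41 beside 0.24 in the introns. In Rbm26 they summed to 9.83 against 9.63 FPKM. The 2 transcripts of Hnrnpc went different ways, at 3.33 against 2.40 FPKM and at 5.02 against 7.88 FPKM. They summed to 8.36 against 10.3 FPKM. Both extend outside the gene, so this sum is not the level of spliced Hnrnpc RNA. In Eif4g3 the value was 3.91 against 2.71 FPKM, and in Rbm6 a transcript antisense to an exon stood at 2.59 against 3.82 FPKM, or -0.55 on the log2 scale beside -0.29. The Eif4g3 and Rbm6 transcripts also extend outside the gene, so neither value is the level of spliced RNA of its host. The Rbm26 sum is 0.03 on the log2 scale, beside a host value of -0.18 in the introns. In Rbms3, 1 assembled spliced form, MSTRG.39708.13 of 972 bases, was at the floor under CIA and at 1.56 FPKM in healthy mice. Its direction is opposite to that of most intronic transcripts of Rbms3. The annotated Rbms3 mRNA was not analysed here, so this form does not give the level of spliced Rbms3 RNA.

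Intronic hosts that act in the same processes under other names lay close to the general level too. In 4 lists of splicing, RNA 3′ end and export, decay and silencing, and translation genes, 44 of 130 genes had intronic transcripts. Their median was 0.13, with 2 hosts 2-fold higher and 4 lower. Both counts are below the shares of all intronic hosts, of which 11.7% were 2-fold higher and 10.2% lower. The counts per list that follow rest on few hosts and are to be read beside these shares. Splicing hosts had a median of 0.11 over 14 hosts, with none 2-fold higher and 2 lower, Prpf3 and Rbfox2. Prpf3, of the U4/U6 snRNP, had a host value of -1.94 and Rbfox2, a splicing regulator, of -1.14, while Prpf6 and Cdk12 had host values of 0.90 and 0.68. The 7 3′ end and export hosts had a median of 0.16 and none was past 2-fold, from Thoc1 and Xpo1 at -0.35 and -0.19 to Wdr33 and Papola at 0.34 and 0.60. The 18 decay and silencing hosts had a median of 0.18, with 2 higher, the exonuclease gene Dis3l2 at 1.02 and the Argonaute gene Ago3 at 1.01, and 1 lower, the deadenylase gene Pan3 at -1.37, beside Xrn1 at -0.60. The 5 translation hosts had a median of -0.05, with 1 lower, Rps6kb1 at -1.34, beside Larp4b at -0.07, and with Etf1 at 0.18 and Gigyf2 at 0.21.

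Intronic RNA of the listed lymphocyte genes differed more between the libraries than that of the RNA-processing genes. The lists were chosen with earlier results of these data known, so this contrast is a description and not a test. Of 12 T cell genes, 8 had intronic transcripts, with host values from 0.67 to 1.51, a median of 1.12 and summed levels of 194.3 against 85.2 FPKM. Of 10 B cell genes, 6 had them, with host values from 0.69 to 1.19, a median of 0.87 and summed levels of 491.9 against 278.7 FPKM. Of 10 genes listed as myeloid and 8 as erythroid 1 each had them, Plcb1 at -2.30 and Ank1 at -0.34, and of 6 proliferation genes none. Plcb1 had a median of 0.289 against 1.82 FPKM. A single host does not stand for a cell type, so myeloid and erythroid cells are not described by these values. Genes without intronic transcripts were not measured by this readout. In RNA of a whole spleen, more cells of a type and more RNA per cell cannot be told apart. The part of cell make-up in the values of Rbms3, Ddx4 and the other RNA-processing hosts was not tested.

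In the authors' deposited table, 2 of the 134 members had a p-value below 0.05, MSTRG.11124.1 of Ddx4 at 0.0390 and MSTRG.39710.1 of Rbms3 at 0.0479. That is 1.49% of the members, where 1.12% of all intronic transcripts had such a p in the authors' deposited table. The lowest q-value of a member in the authors' deposited table was 0.442, and a p of 1 was given to 41 members. The authors' deposited table marked 8 members (5.97%) as significant, against 5.37% of all intronic transcripts, in Rbms3, Rbms1, Dhx30, Rbm19 and Ddx4. All 8 had a deposited ratio past 2-fold. Of them, only the 2 named above had a p-value below 0.05 in the authors' deposited table. The marked members of Rbms1, Dhx30 and Rbm19 had none, so the mark does not stand for such a p-value. With 1 library on each side, these p-values, q-values and marks carry no variation between animals.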

How the data were processed

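The authors deposited FPKM values per transcript, per the file headers, for annotated and for assembled transcripts, with 0.0001 in place of 0. StringTie, a transcript assembler, is named in the submitters' processing notes. No label or header names the aligner, the build, the strand setting or the test, and these are not known here. The authors also deposited, per the file headers, the ratio (fold) with its log2, and a p-value with a q-value. The deposited ratio matched the quotient of the FPKM columns (relative tolerance 0.0001) for all 12603 intronic transcripts. FPKM holds no counts, so the depth is unknown and no counting interval is given.

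Model columns were taken as CIA and control columns as healthy. Coordinates of all 15172 annotated transcripts matched GENCODE M21, the release for GRCm38, which is therefore named as the build. From the FPKM, log2 ratios with a pseudocount of 0.1 FPKM, which understates the ratios of low transcripts, were computed without a filter. Host values are medians over transcripts. A size rule of 2-fold replaced a test. Introns were taken from the longest GENCODE protein-coding transcript that holds the member in 1 intron. The calculation was tested on simulated data.

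Members and lists were chosen with earlier results of these data known. The 28 hosts named by rule were the 10 highest, the 10 lowest, the 5 of highest summed FPKM and the host with most transcripts per prefix, at 1 FPKM or more in either library, with the 2 highest and 2 lowest hosts of each other list. The remaining hosts were added to account for every member. Promoter motifs were chosen after seeing the data, in place of a planned motif search in intron sequence, which was not run. Python 3.11.15, numpy 2.4.6, pandas 2.3.3 and matplotlib 3.10.9 were used.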

Additional observations from a re-analysis of the deposited data

How the results depend on the processing

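With 1 library per group and unknown depth, no error can be put on a ratio, and a call past 2-fold is a size and not a test. No paired analysis was possible because there were only 2 libraries, 1 per group. The host median lay between 0.08, when centred on all intronic hosts, and 0.35, for hosts with at least 3 transcripts. The counts of hosts 2-fold higher and lower, 3 and 3, depend on short, low transcripts. They were 0 and 1 with a pseudocount of 1 FPKM, where the remaining host was Rbm41, at -1.09. With transcripts of at least 1000 bases, a setting added after seeing the data in which the other 5 hosts have no transcript, they were 1 and 0, and a 1.5-fold rule gave 6 and 5. With hosts of at least 3 transcripts, 2 were higher and 1 was lower (14.3% and 7.14%, against 7.27% and 3.48% of the others). The Ddx median then became -1.24, the value of Ddx4 alone, as no other Ddx host has as many transcripts. Summing FPKM per host took Rbms3 below 2-fold, and centring took Rbm19 below it, each leaving 2 higher. That is 4.88%, against 10.9% of the others when summed and 8.76% when centred. Of 402 recomputed host values, 401 moved by less than a factor of 1.5, and none changed sign from a 2-fold call. Many of these values could not move. All 134 members pass the filter of 0.5 FPKM, and 24 hosts have 1 transcript, so summing cannot change them. Leaving out some genes does not alter the values of the rest. Hosts that drop out under a setting are not counted, so this total is no measure of stability. Leaving out Rbms1, Rbms3 and Rbm47, also added after seeing the data, left 2 hosts higher and 3 lower. These are 5.26% and 7.89%, against 11.7% and 10.2% of the others.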

Other observations

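The same gene families also hold 16 assembled transcripts in 10 genes without intronic members. Srsf5, an SR protein gene, had 4 spliced transcripts that differed in direction: MSTRG.8625.14 stood at 5.51 against 19.3 FPKM, and MSTRG.8625.13 at 29.1 against 12.3 FPKM. The 4 summed to 35.9 against 32.5 FPKM, a log2 ratio of 0.14. The annotated Srsf5 mRNA was not analysed here, so this sum is not the level of the locus. Srsf2, another SR protein gene, had MSTRG.7409.5 at 2.80 against 5.35 FPKM, MSTRG.7409.6 at 5.45 against 2.52 FPKM and a sum of 8.25 against 7.87 FPKM. Division of reads between overlapping assembled forms was not tested. Ddx58, which encodes the RNA sensor RIG-I, had 1 spliced transcript at 3.13 against 1.13 FPKM, a log2 ratio of 1.40, and MSTRG.29938.1, assigned to Eif2b1, stood at 14.9 against 3.42 FPKM.

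Among annotated lncRNAs named for these families, Rbm3os, opposite the cold-inducible gene Rbm3, stood at 1.04 against 1.64 FPKM, and Dhx58os at 0.169 against 0.0290 FPKM.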
